A study of Mus musculus with 13 samples.

Results

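Principal cells (PC) and intercalated cells (IC) of the adult mouse kidney were compared by the chromatin that was open in their nuclei. The nuclei came from 1 sample of 3-week-old mice (P21) and 2 samples of 8-week-old mice (P56), all whole kidneys, and were taken by the cluster names PC and IC that the authors deposited. They were 581 PC and 503 IC nuclei, 1084 of the 28316 nuclei in the series and of the 16887 in the adult samples. Also used were 2 snATAC-seq libraries of newborn kidney (P0), for the same contrast, and 2 scRNA-seq libraries, 1 of P0 and 1 of adult kidney from wild-type C57BL/6 mice, of which only the number of cells per cluster was used, while 6 bulk ATAC-seq samples were not used here. No treatment or transgene is named for any of these samples. For the nuclei, the number of mice behind each sample, their strain and their sex are not given in the sources used here. The p-values set the mean difference between PC and IC against its variation between these samples. Whether this includes variation between mice is not known.

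Single-nucleus ATAC-seq marks, for each nucleus, the stretches of DNA that a transposase can reach. Here each nucleus had a 1 at each of 300755 peaks where it had a fragment (an open call), and the open calls of the nuclei of a cluster were added up within each sample. Gene activity is the sum over the peaks that overlap a gene and 2 kb upstream of it, and is given in open calls per 1000000 calls of the sum (CPM). Differences are log2 fold changes, IC minus PC, so a positive value means more open in IC. They were tested with the sample as a block, with edgeR's quasi-likelihood test and Benjamini-Hochberg (BH) adjustment at 0.05. The authors drew the clusters on the open chromatin of the same nuclei, so the p-values rank genes and peaks and are not an independent test that the cell types differ. Values of the 3 samples are given in the order P21 replicate 1, P56 replicate 1 and P56 replicate 2.

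Principal and intercalated cells lie side by side in the collecting duct. Principal cells take up water through vasopressin-controlled aquaporin 2 and sodium through the epithelial sodium channel, and secrete potassium. Intercalated cells move acid and base with a vacuolar proton pump: type A cells secrete protons and carry the anion exchanger AE1 (Slc4a1) on the blood side, and type B cells secrete bicarbonate through pendrin (Slc26a4). Both arise from the ureteric bud, and Notch signalling favours the principal cell while the transcription factor Foxi1 is needed for the intercalated cell.

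The sums held 543597, 857904 and 1421266 open calls in PC and 504195, 827289 and 1205965 in IC, so that within each sample the 2 cell types were measured at a like depth. P56 replicate 1 was the shallowest per nucleus, with a median of 2840 open peaks in PC and 3418 in IC nuclei, against 4606 and 4520 in P21 replicate 1 and 6030 and 5740 in P56 replicate 2. Of the 1084 nuclei, 14 had a barcode that another adult library also held.

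The authors named the clusters from open chromatin at genes that included Aqp2, Fxyd4, Atp6v1g3 and Atp6v0d2 in the same nuclei, so the values of these genes describe the clusters and are no independent check of the names. Aqp2 encodes the water channel that vasopressin places in the principal cell membrane, and its start-site peak (chr15:99578527-99579477, mm10, over the annotated start) was open in 46.6%, 27.4% and 58.5% of PC nuclei and in 2.13%, 0.905% and 4.79% of IC nuclei. In proximal convoluted tubule (PCT, the cluster deposited as PT) nuclei of the same samples, which should not use the gene, it was open in 0.356% ± 0.396 (SD, n = 3). Atp6v1g3 encodes a proton pump subunit found in few tissues, and its start-site peak (chr1:138273642-138274156) was open in 26.6%, 21.7% and 36.7% of IC nuclei. Only 1 of 581 PC nuclei had it open, and the share was 164 times as large in IC (95% counting interval 29.0 to 6520 over the 3 samples). Of 10 IC markers, all 10 passed the test for higher gene activity in IC, and of 8 PC markers 6 passed for PC. In DESeq2 these were 10 and 3. The 2 PC markers that did not pass were Aqp3, a basolateral water channel, with a log2 difference of 0.03, and Scnn1b, the beta subunit of the sodium channel, with -0.24. Over all 13620 genes tested, 1239 (9.1%) were higher in IC and 1195 (8.77%) in PC. With DESeq2 the counts were 320 and 264, with no replicate block 643 and 582, and with start-site windows alone 477 and 437. Without P56 replicate 2 the count for PC was 737.

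**Figure D1:**
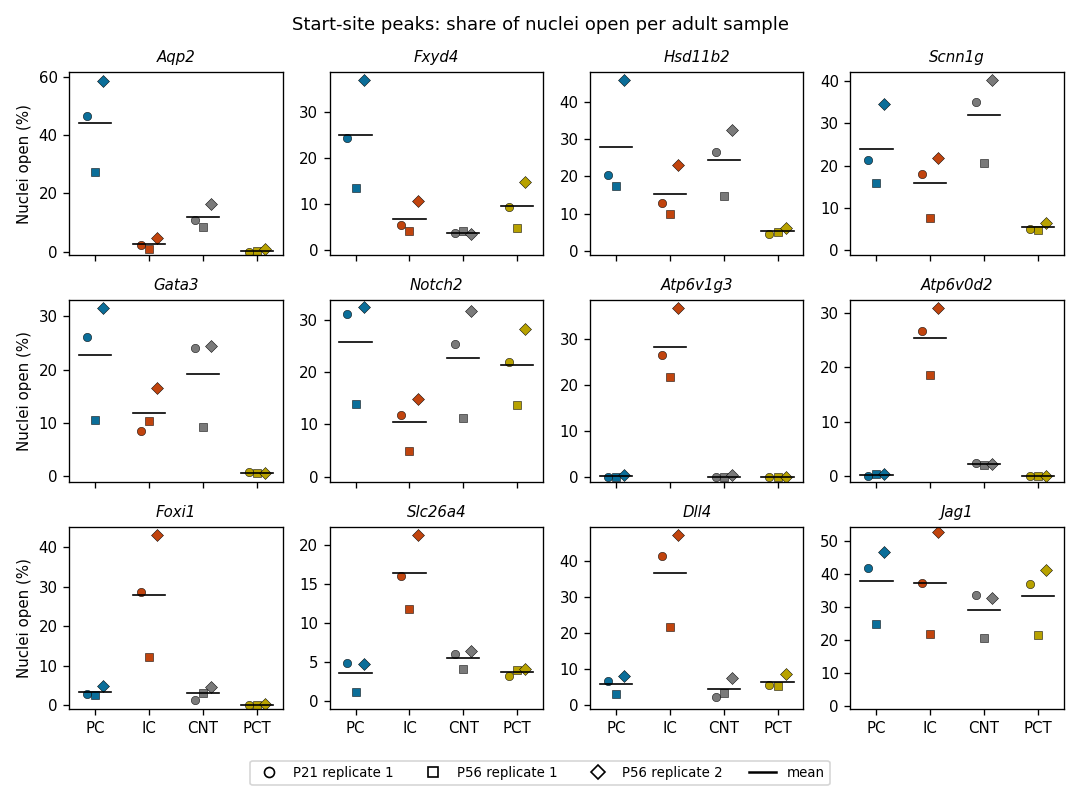
Share of nuclei (%) with the start-site peak open, in PC, IC, connecting tubule (CNT) and PCT nuclei of each adult sample (points) with the mean of the 3 samples (line), for 12 genes. Aqp2 stands apart in PC and Atp6v1g3, Atp6v0d2, Foxi1, Slc26a4 and Dll4 in IC, while the samples of Jag1 overlap between all 4 cell types.

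Of the 20826 peaks tested, 2823 (13.6%) were more open in IC and 2176 (10.4%) more open in PC. A typical IC-higher peak was open in 13.3% of IC and 3.44% of PC nuclei, and a typical PC-higher peak in 12.6% of PC and 4.98% of IC nuclei (medians over peaks of the mean of 3 samples). The differences were larger in IC: 40.9% of the IC-higher peaks and 23.3% of the PC-higher peaks passed a log2 difference of 2, and their median sizes were 1.68 and 1.31. In connecting tubule nuclei, which were in neither group, the same peaks had medians of 5.39% and 6.89%, and in PCT nuclei 1.88% and 2.52%. With DESeq2 the counts were 1627 and 912. Without P21 replicate 1, 3291 peaks were higher in PC, against 2176 with it.

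The called peaks lay less often over transcript starts than the tested peaks, which had passed a filter on low counts, and more often than all peaks of the series. Introns and distal sequence held 64.1% of IC-higher peaks, 61.9% of PC-higher peaks, 35.2% of all peaks tested and 78.3% of all peaks. A transcript start lay under 20% of the IC-higher peaks, 23.0% of the PC-higher peaks, 54.2% of all peaks tested and 7.43% of all peaks. Median GC content of their central 300 bp was 50.7% in IC-higher, 51.7% in PC-higher, 57.3% in tested and 46.7% in all peaks.

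Peaks of both directions lay at the aquaporin locus on chromosome 15, where Aqp2 lies 22.3 kb upstream of Aqp6, which encodes an aquaporin of intracellular vesicles in type A intercalated cells. Within 100 kb of the Aqp2 start, 16 of 54 peaks were tested. Of these, 8 were more open in PC and 6 in IC, where 10.4% and 13.6% of all tested peaks were. Among the 6, 4 had at most 3 open PC nuclei and passed the filter on low counts through IC. The PC-higher peak at -66.72 kb lost its call without P56 replicate 1 (BH-adjusted p = 0.14, edgeR). The one at 6.04 kb lost it without P56 replicate 2 (0.054). All 8 PC-higher peaks lay between -81.21 and 7.93 kb of the Aqp2 start, and all 6 IC-higher peaks between 22.45 and 85.8 kb, at or beyond the Aqp6 start. A peak 5.17 kb upstream of the Aqp2 start was open in 19.4%, 14.7% and 15.1% of PC nuclei and in 0%, 1.36% and 2.13% of IC nuclei. The peak over the Aqp6 start (chr15:99601184-99601830) was open in 12.8%, 8.6% and 18.6% of IC nuclei and in 3 of 581 PC nuclei, a ratio of 25.4 (counting interval 8.32 to 126). A peak at 39.08 kb was open in 13.8%, 8.6% and 13.3% of IC nuclei and in none of 581 PC nuclei. This is below the floor of 3 nuclei, or 0.516%, and a peak without a call need not be closed. A peak at 17.48 kb, between Aqp5 and Aqp6, did not pass the test, with 12.6%, 5.26% and 14.6% of PC nuclei and 16.0%, 8.14% and 22.3% of IC nuclei (log2 difference 0.54 ± 0.25 SE). Of the PC-higher peaks 4 lay within Faim2, which encodes an inhibitor of Fas-mediated cell death and whose start lies 50.9 kb upstream of Aqp2. This locus was chosen for a closer description after its values were seen.

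At Foxi1, the forkhead transcription factor of the intercalated lineage, 10 of the 39 peaks within 100 kb were tested. Of these, 9 were more open in IC and none in PC, where 13.6% and 10.4% of all tested peaks were. Among the 9, 3 had at most 3 open PC nuclei, so they passed the filter on low counts through IC, which favoured that direction. The start-site peak (chr11:34207790-34208449) was open in 28.7%, 12.2% and 43.1% of IC nuclei and in 2.91%, 2.63% and 4.72% of PC nuclei, with a log2 difference of 2.91 ± 0.28 (SE, edgeR, BH-adjusted p = 1.9e-16). Farther from the Foxi1 start were peaks with even fewer open PC nuclei, for which the nearest protein-coding start was that of 4930469K13Rik. The peak 66.03 kb downstream, exonic and over the start of another transcript, was open in 47.9%, 31.7% and 52.7% of IC nuclei and in 3 of 581 PC nuclei, and the peak 71.06 kb downstream, a promoter element, in 28.7%, 22.6% and 39.9% and in none of 581, at least 58.5-fold higher when PC is set to a floor of 3 nuclei over the group. Both were at 0% in the connecting tubule nuclei of all 3 adult samples and at or below 0.129% in PCT nuclei.

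**Figure D2:**
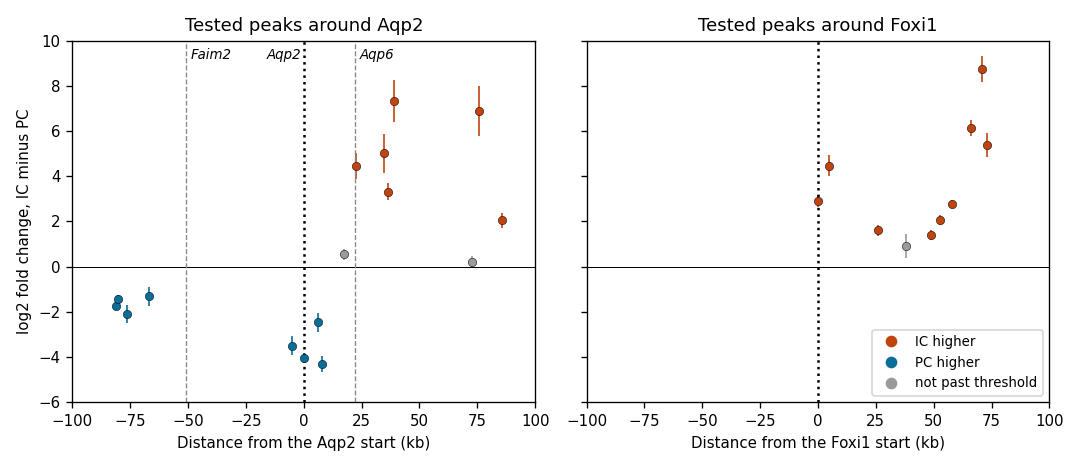
Log2 fold change (IC minus PC) with its SE for each tested peak within 100 kb of the Aqp2 start (left) and the Foxi1 start (right), against distance in kb in the direction of transcription. The 8 PC-higher peaks at Aqp2 end at 7.93 kb and the 6 IC-higher peaks begin at 22.45 kb, at the Aqp6 start. At Foxi1 9 of 10 peaks are IC-higher, and fitted values of peaks with no open PC nucleus depend on the prior count. Over all tested peaks 13.6% were IC-higher and 10.4% PC-higher.

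For 6 loci, the central 300 bp of 1 intronic or distal peak are shown. This was the peak with the smallest p within 100 kb of the gene start, among those more open in the cell type named below. Each peak reached beyond the 300 bp shown, and whether this DNA carries the cell-type difference was not tested. All 6 peaks were distal. The peak shown for Aqp2 lay 5.69 kb upstream of the nearest protein-coding start, that of Aqp5. The peak shown for Foxi1 lay 51.6 kb upstream of its nearest, that of 4930469K13Rik. The sequences are the plus strand of the RefSeq GRCm38.p6 assembly, the same build as mm10, in lower case, with matches to the 13 motifs searched (below) in capitals. The first 3 were more open in IC, near Foxi1 (chr11:34149972-34150271, 58.0 kb downstream of the start), Atp6v1g3 (chr1:138266206-138266505, 7.38 kb upstream) and Slc4a1 (chr11:102347624-102347923, 18.4 kb downstream). The last 3 were more open in PC, near Aqp2 (chr15:99584941-99585240, 6.04 kb downstream), Scnn1g (chr7:121782579-121782878, 48.2 kb downstream) and Gata3 (chr2:9897939-9898238, 8.05 kb upstream).
Foxi1: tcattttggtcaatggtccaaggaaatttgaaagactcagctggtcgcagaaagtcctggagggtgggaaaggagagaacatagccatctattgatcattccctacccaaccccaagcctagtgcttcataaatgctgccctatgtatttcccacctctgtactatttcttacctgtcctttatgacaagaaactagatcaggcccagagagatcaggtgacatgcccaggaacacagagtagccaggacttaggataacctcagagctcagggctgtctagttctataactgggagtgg
Atp6v1g3: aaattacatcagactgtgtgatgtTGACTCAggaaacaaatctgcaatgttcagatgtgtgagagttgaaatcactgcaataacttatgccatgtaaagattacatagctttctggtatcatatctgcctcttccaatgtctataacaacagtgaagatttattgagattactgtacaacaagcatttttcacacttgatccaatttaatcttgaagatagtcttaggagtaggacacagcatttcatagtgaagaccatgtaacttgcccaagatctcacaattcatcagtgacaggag
Slc4a1: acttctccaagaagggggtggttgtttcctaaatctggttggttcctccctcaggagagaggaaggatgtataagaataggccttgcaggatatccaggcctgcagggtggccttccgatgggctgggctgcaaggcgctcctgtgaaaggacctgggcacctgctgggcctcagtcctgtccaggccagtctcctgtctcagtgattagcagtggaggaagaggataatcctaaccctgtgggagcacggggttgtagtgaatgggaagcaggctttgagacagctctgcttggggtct
Aqp2: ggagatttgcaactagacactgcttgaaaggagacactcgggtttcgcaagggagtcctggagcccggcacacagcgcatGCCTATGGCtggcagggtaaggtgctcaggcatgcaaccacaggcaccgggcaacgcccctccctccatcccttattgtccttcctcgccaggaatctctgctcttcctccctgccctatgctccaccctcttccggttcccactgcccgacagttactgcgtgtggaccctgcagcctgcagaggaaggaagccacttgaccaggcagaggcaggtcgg
Scnn1g: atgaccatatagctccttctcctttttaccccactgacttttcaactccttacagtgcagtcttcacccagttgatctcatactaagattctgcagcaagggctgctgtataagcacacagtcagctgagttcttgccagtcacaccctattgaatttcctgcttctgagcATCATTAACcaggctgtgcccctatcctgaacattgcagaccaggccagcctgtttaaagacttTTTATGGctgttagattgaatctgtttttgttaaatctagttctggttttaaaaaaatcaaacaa
Gata3: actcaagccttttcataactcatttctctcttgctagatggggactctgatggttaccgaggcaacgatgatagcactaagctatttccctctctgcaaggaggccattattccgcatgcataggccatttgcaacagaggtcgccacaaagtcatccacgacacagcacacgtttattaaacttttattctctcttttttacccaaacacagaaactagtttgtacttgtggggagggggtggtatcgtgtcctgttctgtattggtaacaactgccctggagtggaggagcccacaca

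The Foxi1 peak was the most widely open of these, in 60.6%, 36.7% and 53.7% of IC nuclei and 6.8%, 3.76% and 10.4% of PC nuclei. Its window held no match to any of the 13 motifs, and neither did those near Slc4a1 and Gata3. The Atp6v1g3 peak was open in 24.5%, 13.6% and 25% of IC nuclei and in 1 of 581 PC nuclei, and the capitals mark an AP-1 match. The Slc4a1 peak was open in 10.6%, 8.14% and 14.9% of IC nuclei and in 2 of 581 PC nuclei.
Among the PC-higher peaks, the one near Aqp2 was open in 9.71%, 6.02% and 21.2% of PC nuclei and in 4.26%, 1.36% and 2.13% of IC nuclei, and the capitals mark an AP-2 match. Its log2 difference of -2.46 was past the threshold with all samples (BH-adjusted p = 5.2e-07, edgeR) and was -1.79 and not past it without P56 replicate 2. The peak near Scnn1g was open in 11.7%, 16.9% and 23.6% of PC and 6.38%, 5.43% and 6.91% of IC nuclei, with an HNF1 and a posterior Hox match. The peak near Gata3 was open in 8.74%, 5.26% and 8.49% of PC nuclei and in 3 of 503 IC nuclei.

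Matches of short motifs were counted in the central 300 bp of peaks, on both strands. The forkhead motif (TGTTTAC) was in 11.9% of IC-higher peaks (95% exact interval 10.7 to 13.1), 4.14% of PC-higher peaks, 4.24% of all peaks tested and 5.09% of the 300693 peaks that were searched. The estrogen-related receptor motif (CAAGGTCA) was in 5.92% of IC-higher peaks, 1.98% of PC-higher peaks and 2.5% of those tested. The TEAD motif (TGGAATG) had a higher share in PC, in 9.24% of PC-higher against 5.35% of IC-higher peaks, with 4.58% of tested and 6.45% of all peaks searched. So did the GATA motif (AGATAAG), in 5.65% against 3.51%, with 2.59% of tested and 3.97% of all peaks searched. The ETS motif (CAGGAAGT) was in 5.65% against 3.05%, with 3.36% of tested and 3.77% of all peaks searched. Because called peaks lay less often over starts than tested peaks, the shares were also taken over intronic and distal peaks alone. There forkhead was in 12.9% of IC-higher, 4.82% of PC-higher and 6.82% of tested peaks, and TEAD in 6.08%, 11.5% and 7.71%. The AP-1, AP-2, NF1, posterior Hox, CTCF core, HNF1, and CP2 and grainyhead motifs had intervals that overlapped between the 2 directions. The steroid receptor motif (ACANNNTGT) was in 10.6% of IC-higher, 6.99% of PC-higher and 5.5% of tested peaks. Its share of all peaks searched, 9.97%, was near that of IC-higher peaks. Over intronic and distal peaks it was in 12.2%, 8.61% and 9.14% of IC-higher, PC-higher and tested peaks. The GC-rich AP-2 motif (GCCNNNGGC) was in 13.7% (12.5 to 15.0) and 16.5% (14.9 to 18.1), against 23.0% of those tested and 8.99% of all peaks searched, and over intronic and distal peaks in 10.4%, 13.4% and 13.5% of IC-higher, PC-higher and tested peaks. Matches of different motifs may overlap, and a match of so few letters is not a bound site.

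**Figure D3:**
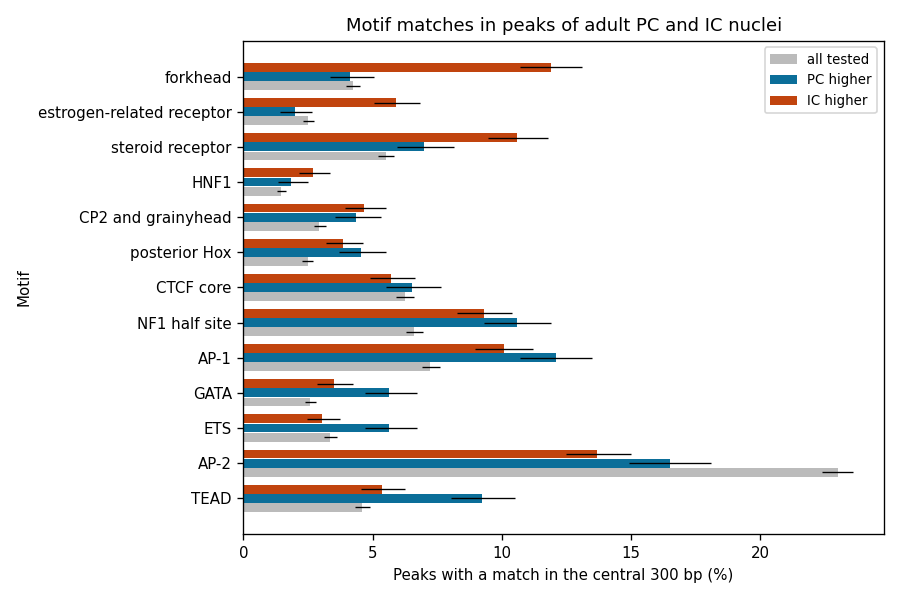
Share of peaks (%) with a match to each motif in the central 300 bp, for IC-higher, PC-higher and all tested peaks, with 95% exact binomial intervals. Forkhead and estrogen-related receptor matches were most frequent in IC-higher peaks (11.9% and 5.92%), and TEAD, ETS and GATA matches in PC-higher peaks.

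Transcription factors were listed by the cell type they are known from. All 6 factors listed for IC had higher gene activity there, where 9.1% of all genes did, and 4 of them in DESeq2. The list median was 1.26 against 0.01 over all genes tested. Foxi1, whose window held 1 peak, had 53.6, 32.6 and 67.2 CPM in IC and 5.52, 8.16 and 7.04 in PC (log2 difference 2.89 ± 0.29, SE). Hmx2, a homeobox factor, had 51.6, 56.8 and 44.8 in IC and 7.36, 4.66 and 1.41 in PC, with all 4 peaks of its window shared with a neighbouring gene. Esrrg, an estrogen-related receptor, had 482, 603 and 453 in IC and 215, 235 and 240 in PC, and Foxp1, a forkhead repressor, 516, 704 and 433 in IC and 182, 207 and 219 in PC, with 82 of its 176 peaks shared. Tfcp2l1, a CP2 family factor of the collecting duct, was open in both, with 169, 300 and 255 in PC and 371, 300 and 401 in IC. Its groups overlapped, and the difference of 0.54 ± 0.13 (SE) passed with edgeR (BH-adjusted p = 0.0047) and not with DESeq2. Dmrt2, a DM domain factor, had 45.6, 23.0 and 41.5 in IC and 12.9, 26.8 and 12.0 in PC, so that P56 replicate 1 went the other way and the groups overlapped. It passed (1.1), with 1.78 without P56 replicate 1, and lost its call without P56 replicate 2 (BH-adjusted p = 0.37).

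Of the 11 factors listed for PC, 5 passed for PC (1 in DESeq2), where 8.77% of all genes did, and none for IC, with a list median of -0.36 against 0.01 over all genes tested. Elf5, an ETS factor, had the largest difference, with 162, 185 and 141 in PC and 51.6, 41.1 and 39.8 in IC (-1.90 ± 0.14, SE, BH-adjusted p = 1.8e-10, edgeR). Gata3, a zinc-finger factor of the ureteric bud, had 213, 161 and 251 in PC and 139, 122 and 158 in IC, where the lowest PC sample was just above the highest IC sample and 6 of 12 peaks were shared with another gene. Its difference of -0.58 ± 0.12 (SE) did not pass without P56 replicate 2 (BH-adjusted p = 0.061) or with DESeq2. Gata2 (-0.61), Ehf (-0.48) and Emx1 (-0.66) also passed in edgeR and not in DESeq2, and Emx1 not without either P56 sample (BH-adjusted p = 0.14 and 0.39). Hoxb7, a homeobox gene of the ureteric bud (-0.36), and Tfap2b, an AP-2 factor (-0.33), did not pass.

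The vacuolar proton pump is built of many subunits, some used in all cells and some in few. Of 21 subunits, 10 passed for IC, where 9.1% of all genes did, 1 for PC, where 8.77% did, and 10 for neither, with a median of 0.42. Atp6v1g3 had 115, 88.2 and 99.5 CPM in IC and 1.84, 1.17 and 2.11 in PC (5.69 ± 0.29, SE, BH-adjusted p = 4.0e-13, edgeR). Atp6v1c2 had 119, 114 and 126 against 14.7, 10.5 and 7.04. Atp6v0d2 had 109, 106 and 73.0 against 12.9, 16.3 and 14.8. The a4 and B1 subunits, whose human genes are mutated in distal renal tubular acidosis with deafness, were open in both cell types: Atp6v0a4 had 434, 412 and 448 in IC and 147, 180 and 224 in PC, with 6 of 22 peaks shared, and Atp6v1b1 145, 127 and 138 against 36.8, 79.3 and 58.4. Atp6v1a, the catalytic A subunit used in all cells, had 165, 97.9 and 144 in IC and 110, 94.4 and 127 in PC and did not pass (0.24). Atp6v0d1, the widely used d subunit, was higher in PC by 0.39 on the log2 scale. It lost its call without P56 replicate 1, in DESeq2 and without the block, and no subunit passed for PC with start-site windows alone. In DESeq2 8 of the 21 subunits passed for IC.

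**Figure D4:**
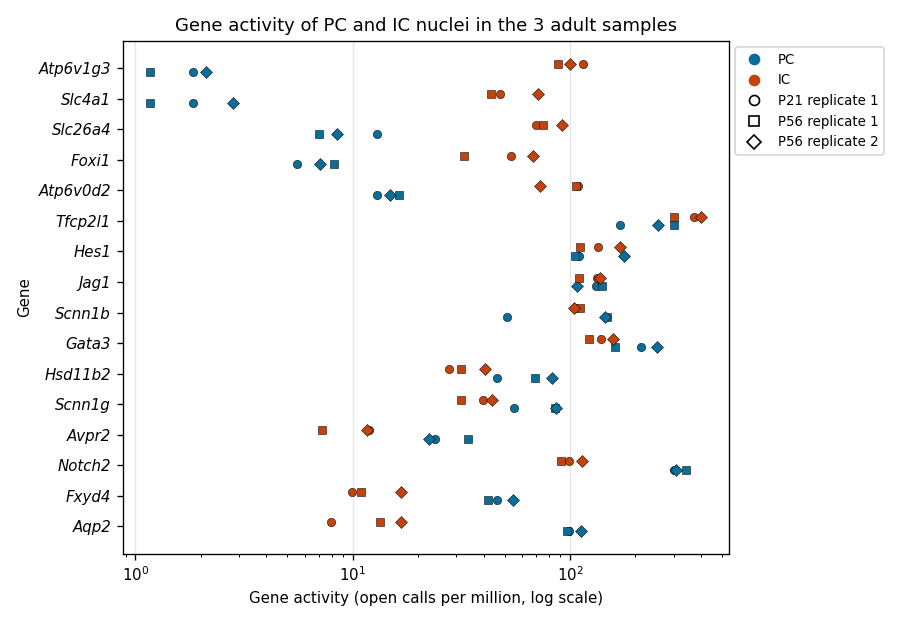
Gene activity (CPM, log scale) of 16 genes in PC and IC nuclei of the 3 adult samples (1 point per sample). PC and IC samples do not overlap at Atp6v1g3, Slc4a1, Slc26a4, Foxi1, Atp6v0d2, Aqp2, Fxyd4, Notch2, Gata3, Avpr2, Scnn1g and Hsd11b2. They overlap at Tfcp2l1, Hes1, Jag1 and Scnn1b. Of the 20826 single peaks tested, 6275 also had no overlap between PC and IC samples.

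Transport of acid, base, chloride and ammonia was the list with most calls. Of 21 genes, 13 passed for IC and 2 for PC, against 9.1% and 8.77% of all genes, so the share for PC was near that of all genes. The median was 1.36. Slc4a1, the AE1 exchanger of type A cells, had 47.6, 43.5 and 71.3 in IC and 1.84, 1.17 and 2.81 in PC (4.68 ± 0.35, SE). Slc26a4, the pendrin of type B cells, had 69.4, 74.9 and 92.0 in IC and 12.9, 6.99 and 8.44 in PC (3.19 ± 0.23, SE). Slc4a9 (AE4), a basolateral exchanger of type B cells, had 210, 226 and 219 against 36.8, 32.6 and 33.1, with little spread between samples. Oxgr1, a receptor for 2-oxoglutarate on type B cells, had 89.3, 117 and 68.8 against 1.84, 0 and 7.04. Its log2 difference of 4.44 was 6.90 without P56 replicate 2 and 3.70 without P56 replicate 1. Insrr, an insulin receptor-related kinase that senses alkali, had 149, 126 and 126 against 22.1, 8.16 and 5.63, with all 8 peaks of its window shared with an overlapping gene.

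Bsnd, the chloride channel subunit barttin, had 177, 116 and 157 in IC and 11, 32.6 and 29.6 in PC. Of the ammonia transporters, Rhbg passed (1.18 ± 0.15, SE) and Rhcg did not (0.22). Rhbg shared 8 of its 9 peaks with a neighbour. Higher in PC were Atp12a, the colonic proton-potassium pump, by 1.25 on the log2 scale, and Slc4a8, a sodium-driven exchanger, with a log2 difference of -0.42 that was lost without either P56 sample. Neither was past the threshold in DESeq2, where 12 of the 21 genes passed for IC and none for PC. Slc26a7, an anion exchanger, had 41.7, 33.8 and 38.1 in IC and 36.8, 50.1 and 31.7 in PC.

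Of 9 genes of water transport and the response to vasopressin, 5 passed for PC and 2 for IC, where 8.77% and 9.1% of all genes did. In DESeq2 3 passed for PC and 1 for IC. Aqp2 had 99.3, 96.7 and 112 in PC and 7.93, 13.3 and 16.6 in IC (-2.91 ± 0.19, SE, BH-adjusted p = 3.5e-11, edgeR). Aqp4, a basolateral water channel, had 42.3, 53.6 and 41.5 in PC and 1.98, 13.3 and 7.46 in IC. Avpr2, the V2 vasopressin receptor, had 23.9, 33.8 and 22.5 in PC and 11.9, 7.25 and 11.6 in IC, with both peaks of its window shared with a neighbouring gene. Its difference of -1.35 ± 0.33 (SE) did not pass without P56 replicate 1 (BH-adjusted p = 0.091) or in DESeq2. The V1a receptor Avpr1a, on the acid and base list, went the other way, with 65.5, 50.8 and 43.1 in IC and 11, 2.33 and 7.04 in PC (2.94 ± 0.30, SE).

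Prostaglandin E2 receptors split in the same manner. Ptger1 (EP1) had 88.3, 100 and 92.2 in PC and 29.8, 27.8 and 33.2 in IC (-1.61 ± 0.16, SE), with 3 of its 4 peaks shared with a neighbour. Ptger3 (EP3) had 75.4, 78.6 and 76.3 in IC and 29.4, 22.1 and 24.6 in PC (1.62 ± 0.18, SE). The groups did not overlap at either gene, which was also so at 6275 of the 20826 single peaks tested. Ptger4 (EP4) was higher in PC (-0.72) and lost its call without P56 replicate 2.

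Of 14 genes of sodium transport and the aldosterone response, 5 passed for PC and 3 for IC, against 8.77% and 9.1% of all genes, and the list median of -0.03 was near that of all genes. The sodium channel subunits differed among themselves. Scnn1g, the gamma subunit, had 55.2, 85.1 and 86.5 in PC and 39.7, 31.4 and 43.9 in IC (-1.03 ± 0.17, SE, BH-adjusted p = 4.2e-05, edgeR). Scnn1b, next to it, had 51.5, 148 and 145 in PC and 105, 111 and 104 in IC, with 9 of its 14 peaks shared with another gene, and the P21 sample was on the other side of the P56 samples. It was not past the threshold with all samples (-0.24, BH-adjusted p = 0.36, edgeR) and was higher in PC without P21 replicate 1 (BH-adjusted p = 0.0048). Scnn1a, the alpha subunit, had 71.7, 131 and 130 in PC and 135, 132 and 156 in IC and did not pass with all samples (0.29), only without P56 replicate 1. Hsd11b2, the enzyme that keeps glucocorticoids from the mineralocorticoid receptor, had 46.0, 68.8 and 83.0 in PC and 27.8, 31.4 and 40.6 in IC (-1.02 ± 0.17, SE), while the receptor gene Nr3c2 had 215, 307 and 286 against 280, 325 and 294 (0.13).

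Fxyd4 (CHIF) and Fxyd2, both regulators of the sodium pump, lay on opposite sides. Fxyd4 had 46.0, 42.0 and 54.9 in PC and 9.92, 10.9 and 16.6 in IC, and Fxyd2 165, 137 and 168 in IC and 82.8, 43.1 and 71.1 in PC. Nedd4l, a ubiquitin ligase that removes the sodium channel, was higher in IC (0.56), and Sgk1, a kinase that blocks Nedd4l, in PC (-0.56). Of the 20 tested peaks of the Nedd4l window, 10 were IC-higher and 3 PC-higher. The peak at the Nedd4l start did not pass (-0.1 ± 0.13, SE). Of the 2 tested peaks of the Sgk1 window 1 was PC-higher, at a start (-0.55), and 1 IC-higher, in an intron (1.5 ± 0.54, SE). With DESeq2 Scnn1g, Hsd11b2 and Sgk1 were not past the threshold, and on that list 2 genes passed for IC and 1 for PC.

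Of the 8 potassium channel genes tested, 3 passed for PC, where 8.77% of all genes did, and none for IC. Kcnj1, the secretory channel ROMK, had 57.0, 97.9 and 110 in PC and 33.7, 24.2 and 41.5 in IC (-1.48 ± 0.17, SE). Kcnj16, a basolateral channel subunit, differed by -1.07 and Kcnk1, a two-pore channel, by -0.82, and the latter lost its call without P56 replicate 1 (BH-adjusted p = 0.062). Kcnma1, the large-conductance BK channel, had 93.8, 115 and 87.9 in PC and 89.3, 85.8 and 84.6 in IC. Without P21 replicate 1, 5 of 9 tested passed for PC, in DESeq2 2 of 8, and with start-site windows alone 2 of 6.

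Of the 12 Notch pathway genes, 4 passed for PC and 1 for IC, against 8.77% and 9.1% of all genes, so the share for IC was near that of all genes. The list median was 0.04. Notch2, a receptor, had 302, 340 and 309 in PC and 99.2, 90.7 and 113 in IC (-1.64 ± 0.12, SE, BH-adjusted p = 2.7e-10, edgeR). Of the 83 peaks within 100 kb of its start 5 were tested, and all 5 were more open in PC, where 10.4% of all tested peaks were. These 5 lay in the window of the gene, so they are part of the same gene activity. Dll4, a ligand, had 89.3, 65.3 and 87.9 in IC and 18.4, 16.3 and 17.6 in PC (2.21 ± 0.19, SE, BH-adjusted p = 2.9e-09). Its start-site peak (chr2:119324829-119326132) was open in 41.5%, 21.7% and 47.3% of IC nuclei and in 6.8%, 3.01% and 8.02% of PC nuclei, and in 6.58% of PCT nuclei on average. Jag1, a ligand, had 133, 110 and 138 in IC and 132, 141 and 108 in PC, and Hes1, a target gene, 135, 111 and 170 against 110, 105 and 177, so the groups overlapped at both. The target genes Heyl (-0.84) and Hey1 (-0.61) and the receptor Notch3 (-0.63) passed for PC. Each lost its call in DESeq2 and without at least 1 sample: Heyl without P56 replicate 1 (BH-adjusted p = 0.067), Notch3 without P56 replicate 2 (0.11) and Hey1 without P21 replicate 1 (0.084) or P56 replicate 2 (0.078).

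Cell junction genes had 4 of 12 past the threshold for PC, where 8.77% of all genes were, and none for IC, with a median of -0.28. They were Cdh1, the adhesion protein E-cadherin (-0.46), Tjp1, a tight junction scaffold (-0.48), and the claudins Cldn8 (-0.56) and Cldn19 (-1.25). With nuclei thinned to 1000 open peaks Cldn8 turned to 0.13. All 4 lost the call in DESeq2, without the block and without P56 replicate 2, and Cldn19 also without P56 replicate 1 (BH-adjusted p = 0.24). Among primary cilium genes, Pkd2, the channel polycystin 2, passed for IC at gene activity (0.82) and did not pass at its start-site peak.

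**Figure D5:**
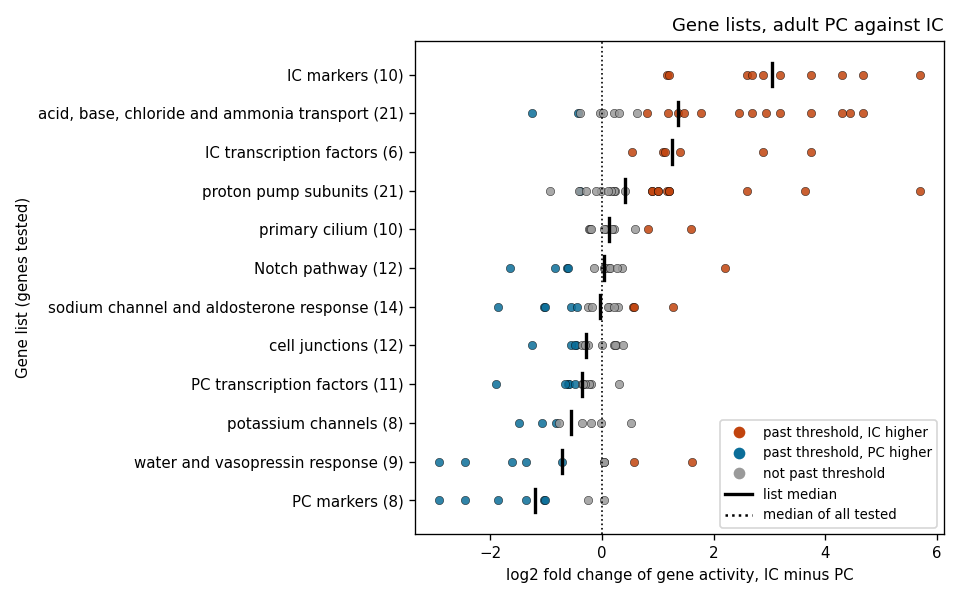
Log2 fold change of gene activity (IC minus PC) for each tested gene of 12 lists, coloured by whether and in which direction it was past the threshold, with the list median (bar) and the median of all tested genes (dotted line, 0.01). Medians run from -1.19 for PC markers to 3.04 for IC markers.

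Beyond the rule for named genes given in the processing, Aqp3, Atp12a, Atp6v0d1, Atp6v1a, Atp6v1b1, Avpr1a, Hoxb7, Kcnma1, Nr3c2, Ptger4, Rhbg, Rhcg, Scnn1a, Slc26a7, Slc4a8 and Tfap2b were given with values after these were seen.

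Outside the lists, the 10 genes with the smallest p in each direction that moved the same way in all 3 samples are as follows. Higher in IC were Eps8, Rcan2, Pam, Serpinb6b, Adcy5, Lrrc69, Tdrp, Epb41l2, Wscd2 and Kit, with log2 differences of 1.84 to 3.81. Eps8, an actin-capping protein, had 349, 360 and 335 in IC and 68.1, 54.8 and 69.7 in PC. Adcy5, an adenylyl cyclase, had 175, 185 and 149 against 33.1, 36.1 and 36.6, Pam, the enzyme that amidates peptides, 276, 312 and 272 against 64.4, 56 and 71.1, and Rcan2, an inhibitor of calcineurin, 208, 213 and 159 against 44.2, 37.3 and 31.0. Kit, a receptor tyrosine kinase, had 81.3, 102 and 79.6 against 18.4, 8.16 and 9.85, and its start-site peak (chr5:75574447-75575527) was open in 22.3%, 13.6% and 20.7% of IC and 2.91%, 0.376% and 2.36% of PC nuclei.

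Higher in PC were Col26a1, Wnt7b, Camkk2, Faim2, Slc12a8, Rasgrf2, BC030870, Tmem45b, Apela and Kcnh5, with log2 differences of -3.28 to -1.45. Wnt7b, a ligand of the ureteric bud lineage, had 136, 136 and 144 in PC and 43.6, 33.8 and 47.3 in IC. Camkk2, a kinase upstream of AMPK, had 267, 249 and 275 against 105, 84.6 and 100, and an intronic peak of the gene (chr5:122770521-122771467) was among the 10 PC-higher peaks with the smallest p. Apela, a peptide hormone that binds the apelin receptor, had 51.5, 68.8 and 71.1 against 9.92, 9.67 and 14.9, and BC030870 is its neighbour. Kcnh5, a potassium channel, had 36.8, 59.4 and 50.7 against 3.97, 6.04 and 4.98.

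Among single peaks, those with the smallest p lay partly far from any gene of the lists. For IC these included 3 peaks of the Foxi1 locus, the Atp6v1g3 and Slc4a9 starts, and a distal peak 76.9 kb upstream of Zfp831 (chr2:174566208-174567020) that was open in 37.4% ± 9.31 (SD, n = 3) of IC and 0.795% ± 0.724 of PC nuclei. For PC they included the Aqp2 start and a peak 7.93 kb beyond it, which lay 3.8 kb upstream of the Aqp5 start, its nearest. They also included a distal peak 19.5 kb upstream of Fxyd4 (chr6:117956843-117957588), open in 26.3% ± 6.46 of PC and 3.29% ± 1.98 of IC nuclei. A peak 13.5 kb upstream of Trim56 (chr5:137129289-137130125) was open in 35.1% ± 14.1 of PC, 4.53% ± 4.01 of IC and 36.8% of connecting tubule nuclei. An intronic Elf5 peak (chr2:103413126-103414078) was open in 21.3% ± 5.71 of PC and 1.57% ± 0.967 of IC nuclei, and in 1.26% of connecting tubule nuclei.

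Markers of other kidney cells were summed per sample. The summed level of 5 proximal tubule markers ranged from 117 to 245 CPM in PC and from 150 to 228 in IC, and that of 4 loop and distal convoluted tubule markers from 66.4 to 136 in PC and from 139 to 184 in IC. Podocyte, endothelial, immune and stromal lists had ranges that overlapped between the cell types. No marker of any of these lists was at 0 in all 6 sums. Past the threshold were Umod (1.17), Slc12a3 (0.66), Cubn (0.59) and Ptprc (0.55) for IC and the connecting tubule genes Trpv5 (-1.34) and Calb1 (-1.13) for PC. None of the 6 passed in DESeq2. Cubn and Ptprc lost the call without either P56 sample, Trpv5 without P56 replicate 2 (BH-adjusted p = 0.12), and Calb1 without P56 replicate 1 (0.11), while without P56 replicate 2 it was too low to test. The part of such nuclei in the results above was not tested, beyond the values given here.

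Markers of type A and type B cells were then sought in single IC nuclei. At least 1 peak of the Slc26a4 window was open in 133 of 503 IC nuclei (26.4%), of the Slc4a1 window in 118 (23.5%), and of both in 16. Slc4a1 was open in 12.0% of the nuclei with Slc26a4 open (95% exact interval 7.04 to 18.8) and in 27.6% of those without it (23.1 to 32.4). Nuclei with Slc26a4 open were the deeper ones, with a median of 5020 open peaks against 4090. The order was the same in each sample: 0%, 8.0% and 20% with Slc26a4 open, against 32.4%, 14.6% and 42.2% without. Nuclei with Slc4a1 open were also deeper than those without, with a median of 5450 open peaks against 3960, and the part of depth in the next shares was not tested. Aqp6 was open in 34.7% (26.2 to 44.1) of nuclei with Slc4a1 open and in 10.9% (7.98 to 14.5) of those without, and in 6.02% of nuclei with Slc26a4 open and 20.3% of those without. Kit was open in 52.5% of nuclei with Slc4a1 open and 28.6% of those without, and Insrr in 61.7% of nuclei with Slc26a4 open and 39.7% of those without. These shares describe nuclei, which share their sample, and carry counting error only.

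The markers of the 2 main types were also sought in the same nucleus. At least 1 peak of the Aqp2 window was open in 259 of 581 PC nuclei (44.6%) and 34 of 503 IC nuclei (6.76%). Atp6v1g3 was open in 208 IC nuclei (41.4%) and in 5 PC nuclei (0.861%), and all 5 of these also had Aqp2 open. Of the 34 IC nuclei with Aqp2 open, 18 had Atp6v1g3 open, and their median depth was 7390 open peaks against 4250 in the other IC nuclei. Whether such nuclei are doublets was not tested.

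The same contrast in the 2 newborn samples rested on 744 PC and 96 IC nuclei. There 913 genes (5.75% of those tested) were higher in IC and 1065 (6.7%) in PC, and at peaks 3774 (8.62%) and 3857 (8.81%). Of the 1239 genes higher in IC in adults, 565 (45.6%) were also called at P0, which was 61.9% of the P0 calls, and 6 were called the opposite way. Of the 1195 genes higher in PC, 457 (38.2%) were called at P0 (42.9% of the P0 calls) and 2 the opposite way. At peaks the shares were 53.0% of the adult IC-higher and 32.5% of the adult PC-higher peaks.

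A difference between stages in the contrast itself was past the threshold at 85 genes of 15147: the IC minus PC difference was higher in adults at 67 (0.442%) and lower at 18 (0.119%). These counts depended on the samples: with 1 sample left out they summed to between 2, without P0 replicate 2, and 148, without P21 replicate 1. Without P0 replicate 1 the sum was 26, without P56 replicate 2 it was 41 and without P56 replicate 1 it was 56. Slc26a4 was past the threshold with each sample left out and in DESeq2. In newborns it was as open in PC (47.0 and 36.4 CPM) as in IC (41.0 and 32.4), and in adults it had 12.9, 6.99 and 8.44 in PC and 69.4, 74.9 and 92.0 in IC. The change in the contrast was 3.42 ± 0.34 (SE, BH-adjusted p = 1.4e-06, edgeR), and 3.21 to 3.67 with each sample left out. Kit had 43.3 and 49.1 in newborn PC and 51.2 and 84.2 in newborn IC, and a change of 2.40 ± 0.31 (SE). It was past the threshold with each sample left out but not in DESeq2. Slc4a1, by comparison, was already apart at P0 (3.86, against 4.68 in adults), as were Oxgr1 (4.96, against 4.44) and Slc4a9 (2.89, against 2.69), and none of these 3 was past the threshold for a difference between stages. At peaks 142 of 31951 tested passed, 98 (0.307%) higher and 44 (0.138%) lower in adults.

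The balance of the 2 cell types was steady among adult samples. PC were 3.17%, 3.84% and 3.42% and IC 2.89%, 3.19% and 3.03% of the nuclei, leaving out the clusters PT_out and NP_LOH. There were 0.913, 0.831 and 0.887 IC nuclei per PC nucleus (95% exact intervals 0.683 to 1.22, 0.692 to 0.997 and 0.725 to 1.08), and the 3 intervals overlapped. In the newborn samples the ratio was 0.102 and 0.16. Among dissociated cells of the scRNA-seq libraries, which were 1 per stage, it was 1.33 (1.18 to 1.51) in the adult and 0.131 (0.117 to 0.146) at P0. The adult ratio of cells was above those of nuclei, between methods that differ in preparation, which cannot be told apart here from a difference between animals.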

How the data were processed

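Chromatin accessibility was measured by snATAC-seq in 1 P21, 2 P56 and 2 P0 samples. The authors deposited a matrix of nuclei by peaks, binarized so that each count is an open call, with cluster names per nucleus. Per their methods, nuclei had 1000 to 40000 fragments, at most 10% mitochondrial and at least 20% promoter fragments. The submitters' processing notes name Cell Ranger ATAC 1.1.0, Cell Ranger 3.1.0, Seurat 3.0 and MACS2, and coordinates are mm10. The adult libraries held 16980853, 26794731 and 43794155 open calls in the order P21 replicate 1, P56 replicate 1 and P56 replicate 2. No doublet caller was run here.

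Open calls were summed per sample and cluster. Gene activity summed the peaks over protein-coding genes of GENCODE and 2 kb upstream, and the limit to protein-coding genes was chosen after seeing the data. Features were filtered with filterByExpr (minimum count 10, minimum total 15) and tested with edgeR 4.0.16 (TMM, quasi-likelihood, sample as block, BH threshold 0.05) in R 4.3.3. PC and IC sums of a block come from the same sample, and their deviations from the group means correlated by 0.118, 0.404 and 0.333 across genes. Alternatives used DESeq2 1.42.0, other filters, windows and depths, and the Fisher exact test over nuclei, which is closest to the authors' own. The fits were tested on simulated data. Shares have 95% exact binomial intervals, ratios of counts exact intervals, and the floor is 3 counts. All of these cover counting error only. Elements were assigned from the annotation with a 5 kb promoter.

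Given with values are 16 genes fixed by name, up to 4 others per list with the smallest p past the threshold, the 10 genes outside the lists and the 10 peaks with the smallest p in each direction that moved alike in all 3 samples, and the 6 peaks whose sequence is shown. The members, lists and tests were chosen with earlier results of these data known. Some genes of the lists are not reported here by name.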

Additional observations from a re-analysis of the deposited data

Results flagged for a closer look

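At 11 of the 80 named genes the IC minus PC difference in gene activity differed between adult and newborn samples by the test of that difference (edgeR, BH threshold 0.05), against 0.442% of all genes with a higher and 0.119% with a lower contrast in adults. Of 145 list genes tested, 7 passed. The named genes were chosen on the adult contrast, which is part of this difference. The change, adult minus P0 on the log2 scale, was 3.42 at Slc26a4, 3.40 at Aqp6, 2.40 at Kit, 1.70 at Insrr, 1.25 at Adcy5, 0.96 at Pam, 0.91 at Eps8 and 0.91 at Epb41l2, where the contrast moved toward IC in adults. It was -1.41 at Fxyd2, -1.21 at Kcnj16 and -1.17 at Sgk1, where it moved toward PC. The change at Aqp6 had an SE of 0.81 (BH-adjusted p = 0.047, edgeR). Aqp6 had 3, 0 and 2 open calls in adult PC and 3 and 6 in P0 IC. Its change was not past the threshold without P56 replicate 1 or P56 replicate 2 (BH-adjusted p = 0.08 and 0.37, edgeR). Without P0 replicate 2, Slc26a4 and Kit were past the threshold and the other 9 were not, and the value at Sgk1 was -0.72. In DESeq2 only Slc26a4 of the 11 was. The P0 sums for IC rested on 40 and 56 nuclei.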

How the results depend on the processing

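Of the 80 genes named, 682 of 772 pairs of gene and alternative kept direction and side of the threshold, 88 lost the call, 1 gained it and 1 reversed. For 87 peaks, 672 of 712 pairs kept both, 34 lost the call, 5 gained it and 1 reversed. The reversals were Cldn8 gene activity and its start-site peak, both 0.13 with nuclei thinned to 1000 open peaks. DESeq2 gave 1627 IC-higher and 912 PC-higher peaks, 320 and 264 genes, and 6 peaks and 1 gene whose contrast differed between stages. Without a filter on low counts these were 6188 and 4441 peaks, and 446 peaks and 256 genes between stages. With no replicate block, which sets aside the pairing by sample, there were 643 and 582 genes, and 24 peaks and 3 genes between stages. With thinned nuclei there were 48 and 38 peaks and 336 and 262 genes, with fewer features tested. The Fisher exact test over nuclei, which takes nuclei as replicates and was run on 253561 peaks without that filter, gave 8999 and 6579 peaks. Start-site windows alone gave 477 and 437 genes. With 1 sample left out, IC-higher peaks ranged from 1936 to 3511, PC-higher peaks from 1504 to 3291, IC-higher genes from 899 to 1154, PC-higher genes from 737 to 1280, peaks between stages from 11 to 114 and genes between stages from 2 to 148. In whole peaks the forkhead share of IC-higher peaks was 22.8% and the GATA share of PC-higher peaks 13.4%. Calling promoters first put 55.8% of IC-higher and 55.0% of PC-higher peaks in introns and distal sequence. Unless said, the cause was not tested.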
